A study of Mus musculus with 3 samples.

Results

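The genes described here encode apolipoproteins, the protein components of lipoprotein particles, and the microsomal transfer protein that loads lipid onto them. They are *Apoa1*, *Apoa2*, *Apoa4*, *Apob*, *Apoc1*, *Apoc2*, *Apoc3*, *Apoe*, *Apom* and *Mttp*, chosen by symbol, and all 10 were found among the 17633 genes that had reads in these data. The study compared the transcriptomes of the 3 germ layers, endoderm, mesoderm and epiblast, in E7.5 embryos of the outbred mouse strain ICR, with no treatment and no allele named in the labels. According to its methods, the embryonic region was cut from the embryo, treated with trypsin and pancreatin, and separated by hand into the layers, the epiblast sample taking in neuroectoderm and primitive streak. RNA of many embryos was pooled into 1 RNA-seq library per germ layer, so no difference below has a replicate check. The libraries held 41.7 M (endoderm), 40.8 M (mesoderm) and 42.7 M (epiblast) reads on genes. Where 3 values stand in a row below without layer names, they are in this order.

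Lipoprotein particles carry triglyceride, cholesterol and phospholipid between cells. In the endoplasmic reticulum of liver, intestine and yolk sac endoderm, the Mttp protein moves lipid onto the long Apob chain as it is made, and the smaller exchangeable apolipoproteins join the particle surface during secretion or afterwards. The visceral endoderm, the outer epithelium of the early rodent embryo, is known to secrete lipoproteins before a placental circulation exists, and mouse embryos without Apob or Mttp are known to die during gestation.

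RPKM, a read count scaled for gene length and library size, was highest in endoderm for 10 of the 10 genes, against 35.7% of all genes listed. The 10 genes took 1.80% of the endoderm reads (exact 95% interval 1.796% to 1.804%), 0.0281% of the mesoderm reads (0.0276% to 0.0286%) and 0.0136% of the epiblast reads (0.0132% to 0.0139%). All such intervals are exact binomial intervals that cover counting error in these libraries only. Calls between a pair of libraries followed the criteria of the study, which ask for RPKM>5 in either library, a Fold Change>2 and, from the read counts, FDR<0.001. By these criteria 10 of the 10 genes were higher in endoderm than in mesoderm, where 7.44% of all genes tested were called in that direction, and 10 of the 10 were higher in endoderm than in epiblast, where the share was 8.02%. Among all genes 5.78% were higher in endoderm than in both other layers, and counting both directions 11.9% differed from mesoderm and 12.6% from epiblast. None of the 10 genes was lower in endoderm, as 4.41% of all genes were against mesoderm and 4.58% against epiblast. Between mesoderm and epiblast 2 of the 9 genes with reads were called, *Apoe* and *Apoc1*, against 5.04% of all genes. Only these 2 had RPKM>5 in either library, so the others could not be called. With no RPKM minimum the calls were also 2. The median log2 ratio of the 10 genes was 10.41 for endoderm to mesoderm and 10.83 for endoderm to epiblast, with libraries at 0 reads set to 3 reads, while the median of all genes was -0.09 in both. In bulk RNA, fewer cells of a type and less RNA per cell cannot be told apart.

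**Figure D1:**
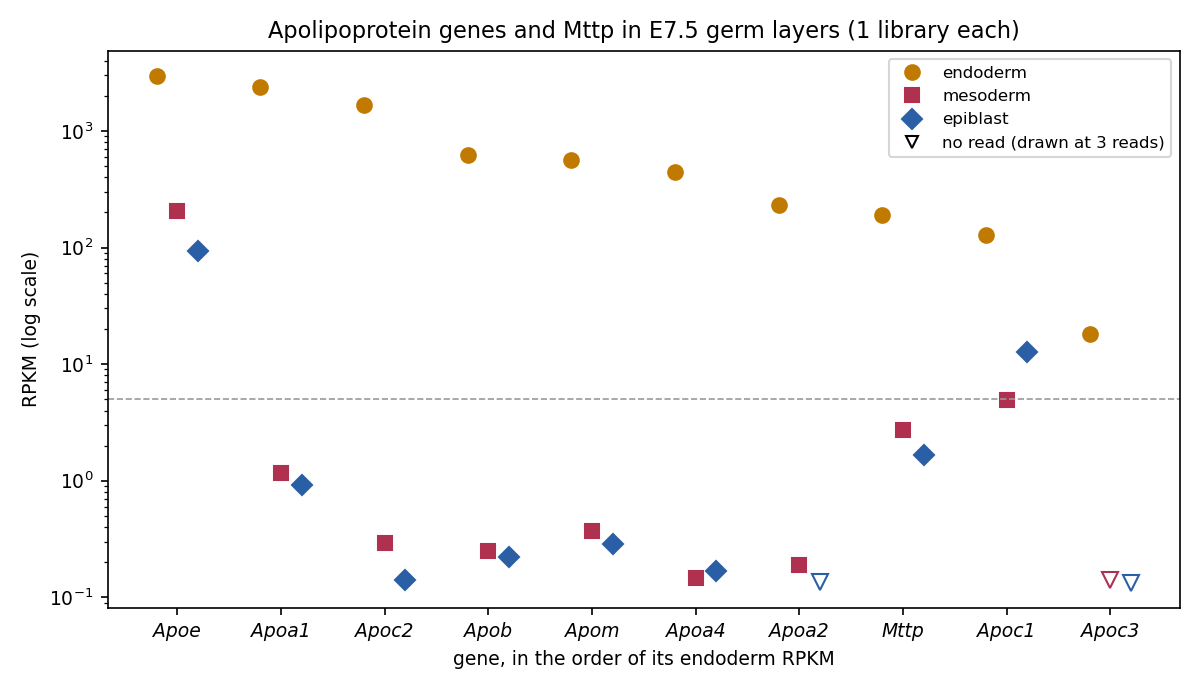
RPKM (log axis) of the 10 genes in the endoderm (circles), mesoderm (squares) and epiblast (diamonds) libraries, 1 library each, in the order of the endoderm level; open triangles mark libraries without a read, drawn at the value of 3 reads, and the dashed line is RPKM 5. Every circle lies above the other points of its gene, and only *Apoe*, *Mttp* and *Apoc1* have both other layers above RPKM 1.2.

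*Apob*, the large structural apolipoprotein of which each very low density particle keeps a single copy, lies on chromosome 12, from 7977648 to 8016835 on the plus strand of GRCm38. It had 358771 endoderm, 143 mesoderm and 133 epiblast reads, and by reads it was the third gene of the endoderm library. Its RPKM was 618 for endoderm, 0.251 for mesoderm and 0.224 for epiblast, over a listed length of 13931 bases. The level in endoderm was 2460.5-fold that of mesoderm (95% counting interval 2089 to 2919) and 2766-fold that of epiblast (2334 to 3303). The share of the gene covered by reads was 99.9%, 47.7% and 52.5%. The mesoderm and epiblast levels of *Apob* did not differ beyond counting error, with a ratio of 1.12 (0.881 to 1.43).

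*Apob* is known for an edit of its mRNA in which Apobec1, helped by the RNA-binding protein A1cf, changes a C to U and turns a glutamine codon into a stop. The reference sequence of the edited stretch is shown because the genes of both editing proteins were measured here. It lies in exon 26 of the 29 exons of the transcript, at chr12:8008048-8008075 of GRCm38 on the plus strand, with the edited C at 8008054. The capitals mark that C, the first base of codon 2179 (CAA) counted from the start codon, and the 11 bases of the mooring motif that follows it, which occurs 1 time in the transcript.
Apob editing site: gcgataCaattTGATCAGTATAttaaag
*A1cf* had 794 reads in endoderm (RPKM 4.98) and 0 in both other layers, at least 260-fold and at least 271-fold higher on a bound of 3 reads, but it missed the criterion of RPKM>5. It was called higher in endoderm in both comparisons with TMM scaling, DESeq2 size factors or the same RPKM total in each library. *Apobec1* itself had 9 endoderm, 0 mesoderm and 5 epiblast reads, RPKM values of 0.0954, 0 and 0.0517. The deposited tables hold reads per gene, and editing at the site was not measured here.

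*Mttp*, the lipid transfer subunit without which Apob is not lipidated, lies on chromosome 3 (138089854 to 138144968, minus strand). It had 33728 endoderm, 473 mesoderm and 303 epiblast reads, which gave RPKM values of 189.5, 2.71 and 1.66. Endoderm was 69.9-fold above mesoderm (63.9 to 76.7) and 114-fold above epiblast (102 to 128). Unlike *Apob*, *Mttp* was covered over nearly its whole length in every layer, 99.8%, 98.2% and 93.8%. The RPKM of *Apob* was 3.26 times that of *Mttp* in endoderm, 0.0927 times in mesoderm (0.0763 to 0.112) and 0.135 times in epiblast (0.109 to 0.166). The order of the 2 genes was thus the other way round outside the endoderm. The exons of *Mttp* overlap those of *Trmt10a* and *Gm43691*, and whether reads were counted by strand is not given in the sources used here, so its low levels are uncertain.

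*Apoa1*, the main protein of high density lipoprotein and activator of cholesterol esterification, was the ninth gene of the endoderm by RPKM. It had 99086 endoderm, 48 mesoderm and 39 epiblast reads, with RPKM values of 2376, 1.17 and 0.912. The endoderm level was 2024-fold that of mesoderm (1527 to 2746) and 2605-fold that of epiblast (1905 to 3663). *Apoa4*, which rides on triglyceride-rich particles and is best known from the intestine, had 30552, 10 and 12 reads. Its RPKM was 440.3 for endoderm, 0.147 for mesoderm and 0.169 for epiblast, a difference of 2996-fold (1629 to 6249) and 2610.3-fold (1494 to 5052). Some of its exons overlap *Gm10680* and *Gm47528*, which were not listed in the tables, so its low levels are uncertain in the same way. *Apoa1* stood above *Apoa4* by 5.40 times in endoderm, 7.99 times in mesoderm (3.99 to 17.7) and 5.41 times in epiblast (2.77 to 11.3), and these intervals overlap.

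*Apoa2*, the second protein of high density lipoprotein, had 5005 endoderm, 4 mesoderm and 0 epiblast reads, with RPKM values of 230.6, 0.188 and 0. The endoderm was 1227-fold above mesoderm (479 to 4505) and at least 1710.4-fold above epiblast, where 0 reads allow up to 3, or RPKM 0.135. *Apom*, the carrier of sphingosine-1-phosphate on high density lipoprotein, had 17025, 11 and 9 reads. Its RPKM was 559 for endoderm, 0.368 for mesoderm and 0.288 for epiblast, so that the endoderm was 1518-fold (848 to 3041) and 1939-fold (1021 to 4242) higher. These genes of high density lipoprotein were all at or below RPKM 1.17 outside the endoderm. *Apoa2* lies on chromosome 1 (171225054 to 171226379, plus strand) and *Apom* on chromosome 17 (35128997 to 35132050, minus strand), away from any other member.

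The C apolipoproteins act on lipase and uptake, and their levels spread more widely in endoderm than those of the A group. *Apoc2*, the obligatory cofactor of lipoprotein lipase, had 46782 endoderm, 8 mesoderm and 4 epiblast reads. Its RPKM was 1684, 0.294 and 0.140, which put the endoderm 5735-fold above mesoderm (2910.3 to 13284) and 11991-fold above epiblast (4683 to 44009.9). Among the ratios that could be computed these were the highest in each comparison, but the interval against mesoderm overlaps those of *Apoa2*, *Apoa4*, *Apob* and *Apom*, that against epiblast overlaps that of *Apoa4*, and *Apoc3* in both comparisons and *Apoa2* against epiblast have lower bounds only. Exons of *Apoc2* overlap the predicted gene *Gm44805*, which was not listed and lies on the same strand. Counting by strand would not separate them, so the low levels of *Apoc2* are uncertain too.

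*Apoc3*, an inhibitor of lipoprotein lipase and of particle clearance, was the lowest of the 10 in endoderm, with 397 reads (RPKM 18.2) and 0 in both other layers. The endoderm was at least 129.8-fold above mesoderm and at least 136-fold above epiblast. *Apoc3* starts 7.1 kb from *Apoa1*, and the *Apoa1* level was 131 times that of *Apoc3* in the endoderm (118 to 145). *Apoc1*, which hinders receptor uptake of remnant particles, was read in every layer. It had 2742 endoderm, 103 mesoderm and 282 epiblast reads, with RPKM values of 128, 4.90 and 12.8. The endoderm was 26.1-fold above mesoderm (21.4 to 32.1) and 9.97-fold above epiblast (8.82 to 11.3), and the epiblast was 2.62-fold above mesoderm (2.08 to 3.31).

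*Apoe*, the ligand by which remnant particles bind their receptors on cells, had the highest level of the 10 genes in every layer. It had 155662 endoderm, 10690 mesoderm and 5016 epiblast reads, and its RPKM was 2952, 207 and 92.8. Among all genes it was the sixth by RPKM in endoderm, 341st in mesoderm and 809th in epiblast. The endoderm was 14.3-fold above mesoderm (14.003 to 14.6) and 31.8-fold above epiblast (30.9 to 32.7), and mesoderm was 2.23-fold above epiblast (2.15 to 2.30). *Apoe* gave 20.8% of the endoderm reads on the 10 genes, 93.0% of the mesoderm reads and 86.5% of the epiblast reads. Macrophages are a known source of *Apoe*, and 6 of the 10 macrophage markers examined had reads. Their reads summed to 121 for endoderm, 176 for mesoderm and 61 for epiblast, a summed RPKM of 2.05, 1.65 and 1.23. The defining genes *Csf1r* (20 reads in endoderm, 0 in mesoderm and epiblast), *Adgre1* (2 reads, in mesoderm) and *Ptprc* (2 reads, in epiblast) were at or near 0, and *C1qa*, *C1qb*, *C1qc* and *Lyz2* were not listed. Most of the summed reads came from *Mrc1*, with 25, 132 and 8 reads, and *Cd68*, with 76, 41 and 51. *Mrc1* was, as *Apoe* was, higher in mesoderm than in epiblast, by 17.2-fold (8.50 to 40.8), at RPKM values of 0.113, 0.607 and 0.0352. Unlike *Apoe*, *Mrc1* was lower in endoderm than in mesoderm, where it was 5.38-fold higher (3.49 to 8.62). The mesoderm to epiblast ratio of *Cd68* was 0.840 (0.543 to 1.29). The part of macrophage RNA in the *Apoe* values was not tested.

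The ratios of members within a library showed the same unequal change from layer to layer. *Apoe* was 1.24 times *Apoa1* in endoderm, 176 times in mesoderm (133 to 239) and 102 times in epiblast (74.3 to 143). *Apoe* was 1.75 times *Apoc2* in endoderm, 704 times in mesoderm (357 to 1631) and 661 times in epiblast (258 to 2426). *Apoe* and its neighbour *Apoc1* differed in another way, at 23.1 times in endoderm (22.2 to 24.0), 42.2 times in mesoderm (34.8 to 51.8) and 7.24 times in epiblast (6.42 to 8.19). The *Apoe* to *Apoc1* ratio was therefore highest in mesoderm and lowest in epiblast, beyond counting error.

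The levels outside the endoderm were set beside 10 markers of visceral endoderm, a list that includes the alpha-fetoprotein gene *Afp* and the transthyretin gene *Ttr*. All 10 markers were highest in endoderm, with summed RPKM of 5055 for endoderm, 40.4 for mesoderm and 21.01 for epiblast, and each had reads in every library. As a percentage of the endoderm RPKM, the markers had a median of 0.179% in mesoderm (range 0.0375% to 23.4%) and 0.212% in epiblast (0.0150% to 10.5%). The 10 genes had medians of 0.0576% and 0.0384%, with ranges of 0 to 7.0% and 0 to 10.03%. *Apoa1* (0.0494% and 0.0384%), *Apoa4* (0.0334% and 0.0383%), *Apob* (0.0406% and 0.0362%) and *Apom* (0.0659% and 0.0516%) were at percentages near those of *Afp* (0.0532% and 0.0509%). *Apoc2* was lower still, at 0.0174% and 0.00834%, as *Ttr* was in epiblast. *Apoe* (7.0% and 3.14%), *Apoc1* (3.83% and 10.03%) and *Mttp* (1.43% and 0.876%) stood above them, in the range of the markers *Rhox5* (1.10% and 0.729%), *Cited1* (7.88% and 3.48%) and *Dkk1* (23.4% and 10.5%). The part of visceral endoderm RNA in the mesoderm and epiblast values was not tested.

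**Figure D2:**
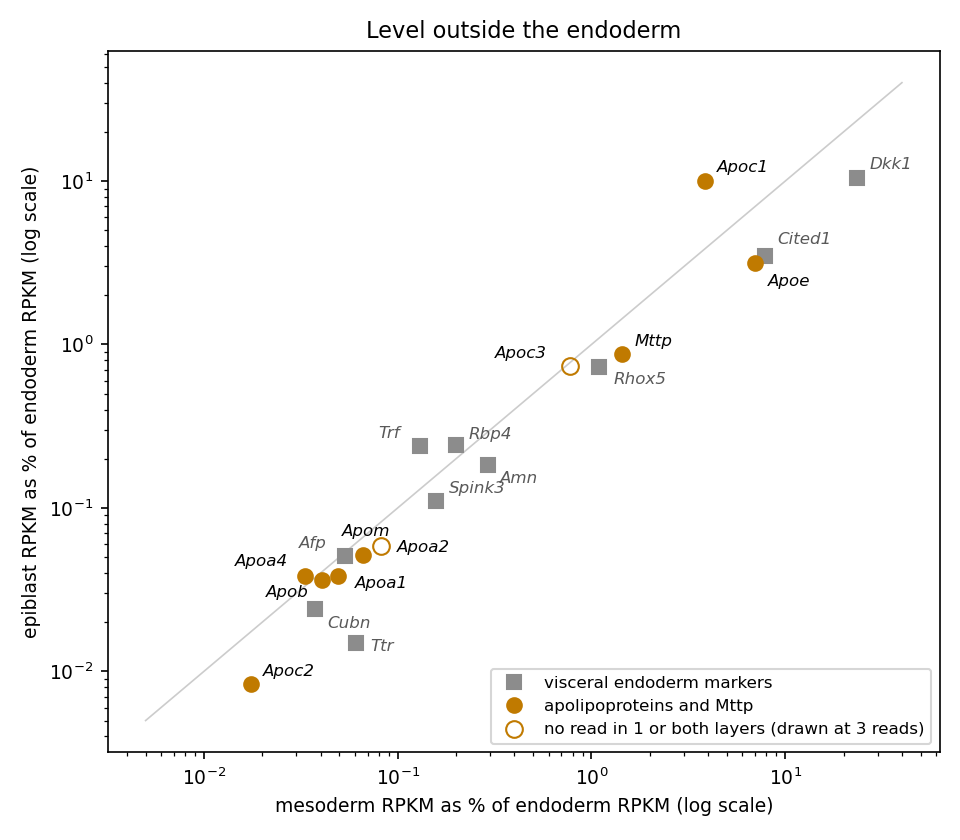
Mesoderm RPKM (x) against epiblast RPKM (y), each as a percentage of the endoderm RPKM of the same gene on log axes, for the 10 genes (circles) and 10 visceral endoderm markers (squares); open circles have no read in 1 or both layers and are drawn at the value of 3 reads, and the line marks equal percentages. *Apoa1*, *Apoa4*, *Apob* and *Apom* lie beside *Afp*, between 0.0334% and 0.0659% on both axes, while *Apoe*, *Apoc1* and *Mttp* lie to the upper right and *Apoc1* lies above the line.

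Without *Apoe*, *Apoc1* and *Mttp*, which were singled out after their values were seen, the 7 other genes had 557618 endoderm, 224 mesoderm and 197 epiblast reads. These were 1.34%, 0.000548% and 0.000461% of the libraries. Their summed RPKM in mesoderm was 0.0409% of that in endoderm, and in epiblast 0.0292%.

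Between mesoderm and epiblast the calls among the 10 genes went in opposite directions. *Apoe* was called higher in mesoderm, as 2.58% of all genes were, and *Apoc1* was called higher in epiblast, as 2.45% were. Both calls were lost when a biological coefficient of variation of 0.2 was assumed in the exact test of edgeR. *Mttp* was 1.63-fold higher in mesoderm (1.41 to 1.89), under the fold criterion and below RPKM 5. The mesoderm to epiblast ratios of *Apoa1* (1.29, 0.826 to 2.02), *Apoa4* (0.871, 0.337 to 2.20), *Apom* (1.28, 0.481 to 3.49) and *Apoc2* (2.09, 0.560 to 9.49) had counting intervals that include 1. *Apoa2* had too few reads for a ratio, and *Apoc3* had none in either layer.

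Of the 10 genes, 6 lie in a pair of chromosomal clusters, which GENCODE M21 places on GRCm38. On chromosome 9, *Apoa1* (46228580 to 46230466, plus strand), *Apoc3* (46232933 to 46235636, minus strand) and *Apoa4* (46240696 to 46243459, plus strand) are followed by *Apoa5*, which starts 40.1 kb from *Apoa1* and acts on triglyceride clearance. *Apoa5* was also called higher in endoderm, with 578 reads there, 0 in mesoderm and 2 in epiblast (RPKM 5.98, 0 and 0.0202). On chromosome 7, *Apoe* (19696109 to 19699188), *Apoc1* (19689481 to 19692660) and *Apoc2* (19671579 to 19677941) lie on the minus strand with *Apoc4* between the last 2. *Apoc4* had 60 reads in endoderm (RPKM 3.01) and 0 in both other layers, too low to be called. Thus all 8 apolipoprotein genes of the clusters had their highest level in endoderm.

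The other listed genes within 50 kb of the clusters behaved otherwise. The kinase gene *Sik3* had RPKM values of 12.5 for endoderm, 10.9 for mesoderm and 9.47 for epiblast. The values were 32.3, 28.8 and 30.8 for *Zpr1*, a zinc finger protein gene, and 18.7, 23.4 and 20.7 for *Bud13*, a splicing factor gene. Beside *Apoe*, the mitochondrial import gene *Tomm40* was at 81.9, 81.5 and 107, and the adhesion gene *Nectin2* at 82.5, 60.2 and 48.9. The NF-kB subunit gene *Relb* was at 1.48, 1.501 and 1.02. Of these 7 neighbours, 6 were called in no pair, and *Clptm1* (68.5, 41.8 and 31.9) was 2.15-fold higher in endoderm than in epiblast.

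**Figure D3:**
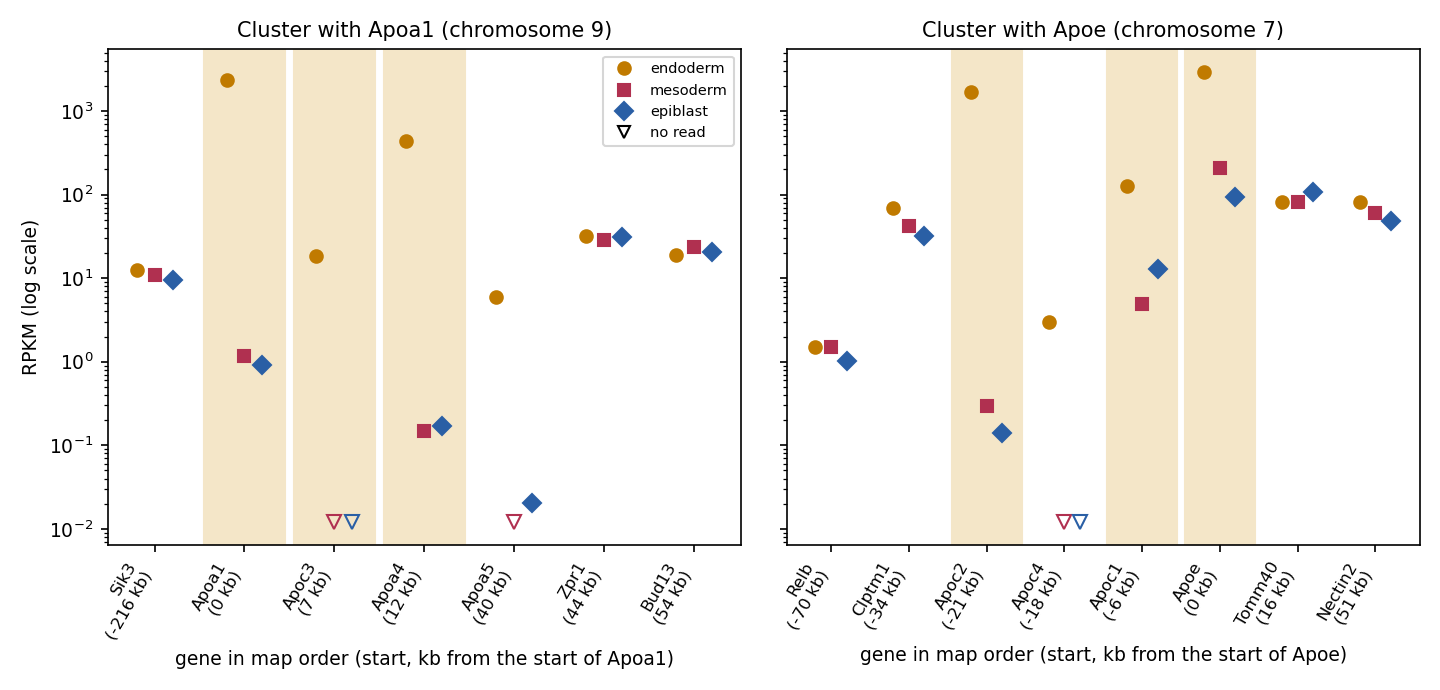
RPKM (log axis) in endoderm (circles), mesoderm (squares) and epiblast (diamonds) of the genes in and within 50 kb of the clusters that hold *Apoa1* (left) and *Apoe* (right), in map order with the distance of each start in kb; shaded columns are the members described here and open triangles are libraries without a read, placed below the axis values. The apolipoprotein genes drop outside the endoderm, while the neighbours *Sik3*, *Zpr1*, *Bud13*, *Tomm40*, *Relb*, *Clptm1* and *Nectin2* stay within 2.15-fold.

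Promoter sequences are shown for 4 genes that moved together, chosen because each holds letters of a motif known from liver and endoderm factors. The windows searched were the 250 bases before each RefSeq start, on GRCm38.p6 and on both strands, and 8 of the 10 genes had an entry, with 11 starts. The letters were CAAAGTNCA for HNF4, a pair of AGGNCA with 1 base between them for the direct repeat that nuclear receptors bind, TGTTTNC for FOXA, AGATAA for GATA and TATAAA for the TATA box. The HNF4 and direct repeat letters can share bases. Below, the capitals mark the matches, and each stretch ends before the first base of the gene in GENCODE. The stretches are chr9:46228430-46228579 on the plus strand for *Apoa1*, chr9:46240594-46240695 plus for *Apoa4*, chr12:7977498-7977647 plus for *Apob* and chr7:19677942-19678091 on the minus strand for *Apoc2*, each printed 5′ to 3′ along its gene.
Apoa1 promoter: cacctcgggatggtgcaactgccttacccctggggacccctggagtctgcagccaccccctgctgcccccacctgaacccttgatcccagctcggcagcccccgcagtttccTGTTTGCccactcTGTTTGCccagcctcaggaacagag
Apoa4 promoter: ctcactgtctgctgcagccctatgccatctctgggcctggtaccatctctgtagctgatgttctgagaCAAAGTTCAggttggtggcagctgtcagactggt
Apob promoter: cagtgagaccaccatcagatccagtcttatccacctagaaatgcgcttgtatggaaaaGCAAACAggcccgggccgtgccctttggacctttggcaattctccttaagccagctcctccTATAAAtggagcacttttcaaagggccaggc
Apoc2 promoter: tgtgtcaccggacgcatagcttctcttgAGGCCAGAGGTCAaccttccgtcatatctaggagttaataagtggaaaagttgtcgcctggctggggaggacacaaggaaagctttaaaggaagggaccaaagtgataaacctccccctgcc
The *Apoa1* window holds the FOXA letters at 2 places, the *Apob* window holds them once on the other strand together with a TATA box, the *Apoa4* window holds the HNF4 letters and the *Apoc2* window the direct repeat. Across the 32851 promoter windows of all genes, the HNF4 letters were found in 1.19%, the direct repeat in 0.338%, the FOXA letters in 17.8% and the TATA box in 12.4%. Among the 11 windows of the 8 genes, HNF4 letters were found in 1 and the direct repeat in 1. FOXA letters were found in 4 windows (also of *Apoa2* and *Apom*, the *Apom* match inside the GENCODE gene). A TATA box was found in 3 windows (also of *Apoa2*, and of *Apoe* at an inner start). The GATA letters (9.99% of all windows) were found in 0 of the 11. These matches are a description of letters and say nothing of binding in these embryos.

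Of 19 transcription factors known to act on these genes, 6 were called higher in endoderm than in mesoderm and 1 lower, and 8 were higher in endoderm than in epiblast. *Hnf4a*, a nuclear receptor of visceral endoderm and liver, had 15342 endoderm, 6 mesoderm and 8 epiblast reads (RPKM 84.3, 0.0336 and 0.0429). *Creb3l3*, a membrane-bound activator of several apolipoprotein genes in liver, was at 31.2, 0.0214 and 0.0410. The forkhead gene *Foxa2* was at 44.0, 1.39 and 2.58. *Foxa1* (20.5, 0.376 and 0.455) and *Foxa3* (12.2, 0.168 and 1.08) were also higher in endoderm in both comparisons. *Gata4* (61.4, 36.0 and 2.15) and *Gata6* (15.0, 31.2 and 0.770) were shared with the mesoderm, where *Gata6* was 2.08-fold above endoderm, a call that was lost with TMM scaling (1.92-fold). Both were higher in mesoderm than in epiblast, by 16.7-fold and 40.5-fold. The RPKM of *Nr1h2*, *Srebf1* and *Srebf2*, which respond to sterols, lay between 10.4 and 28.4 in all layers, and none was called.

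Of 19 other genes of lipoprotein assembly and export, all 19 had their highest level in endoderm, 7 were called higher in endoderm than in mesoderm, 10 higher than in epiblast, and 0 lower, with 0 calls between mesoderm and epiblast. *Pla2g12b*, which helps lipidate Apob particles, was at RPKM 65.9 for endoderm, 0.635 for mesoderm and 0.0434 for epiblast. *Soat2*, which makes the cholesteryl ester of the particle core in liver and intestine, was at 90.7, 0.311 and 0.209. *Mia2*, known for loading large cargo into transport vesicles, had 900 reads in endoderm and 0 in both other layers, at least 294-fold and at least 308-fold higher. The lipid droplet gene *Cideb* (10.1, 0.124 and 0.0987) and the fatty acid carrier gene *Fabp1* (13.4, 0.0498 and 0) were called in both comparisons.

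Other genes of this list were present in all layers with smaller differences. The triglyceride synthesis gene *Dgat2* was at 46.5, 8.41 and 4.54, and *Soat1* at 78.3, 21.2 and 26.8. *P4hb*, the partner subunit of Mttp and a general protein-folding enzyme, was at 489, 299.6 and 232, and the export receptor gene *Surf4* at 168, 85.6 and 69.2. Both were called only against epiblast, by 2.11-fold and 2.43-fold, the call of *P4hb* was lost with upper quartile scaling (1.92-fold), and *Surf4* passed against mesoderm too with TMM scaling (2.12-fold). *Tmem41b* (17.2, 8.93 and 5.99), a lipid scramblase gene, was called against epiblast alone, and against mesoderm too with TMM scaling (2.08-fold). *Sar1a*, *Sar1b*, *Mia3* and *Dgat1*, also above RPKM 5, were not called.

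Of 16 receptors and uptake genes, 7 were higher in endoderm in each comparison with endoderm. The clathrin adaptor gene *Dab2* was at RPKM 684, 20.2 and 6.99, and the megalin gene *Lrp2* at 41.7, 2.55 and 9.26. *Cubn* (524, 0.196 and 0.126) and *Amn* (219, 0.639 and 0.403), which form the receptor that takes up vitamin B12 and Apoa1, are also on the visceral endoderm list. *Scarb1*, the receptor of high density lipoprotein, was at 78.9, 10.7 and 13.6, the chaperone gene *Lrpap1* at 129, 31.7 and 35.7, and *Sorl1* at 11.7, 1.23 and 3.12. *Vldlr* (0.559, 2.44 and 1.45) and *Lrp8* (0.875, 3.55 and 4.71), receptors of Apoe particles, were lowest in endoderm but below RPKM 5. *Lrp1* (13.7, 18.9 and 8.996) was called only between mesoderm and epiblast, where mesoderm was 2.10-fold higher. *Dab2* was also higher in mesoderm than in epiblast, by 2.89-fold, and *Lrp2* was higher in epiblast, by 3.63-fold. *Sort1* (9.14, 16.2 and 18.4) was above endoderm in the epiblast by 2.02-fold, and not called with TMM scaling (1.87-fold), while *Lsr*, also above RPKM 5, was not called in any pair.

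Of 15 genes of lipoprotein remodelling and lipid efflux, 14 had reads. Of these, 7 were highest in endoderm, 3 in mesoderm and 4 in epiblast. Only 1 passed RPKM>5 in endoderm or mesoderm and 3 in endoderm or epiblast, so most could not be called. Below that minimum, *Npc1l1* (3.48, 0 and 0.0205), *Lipc* (3.08, 0 and 0.0484) and *Lcat* (3.43, 0.786 and 0.427) were highest in endoderm. By the criteria 0 were called between endoderm and mesoderm, and 2 were higher in epiblast than in endoderm. These were *Lpl*, the lipase that Apoc2 activates, at 0.534, 3.38 and 7.33, and its inhibitor *Angptl4*, at 1.63, 4.41 and 5.40. *Lpl* was 13.7-fold higher in the epiblast (11.1 to 17.2) than in the endoderm, the opposite order to *Apoc2*, and 2.17-fold higher than in mesoderm (1.96 to 2.40). *Lmf1*, needed for lipase folding, was at 17.4, 14.5 and 9.49 and was not called. The 12 other apolipoprotein genes had reads for 8, and 2 were higher in endoderm in both comparisons, *Apoa5* and *Clu* (11.6, 3.71 and 5.57). *Clu*, which codes for the secreted chaperone clusterin, was 3.14-fold above mesoderm and 2.09-fold above epiblast, and the latter was not called when the libraries were scaled to the same upper quartile (1.91-fold). *Apod*, *Apof*, *Apon*, *Apol6* and *Apol8* stayed at or below RPKM 0.340.

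**Figure D4:**
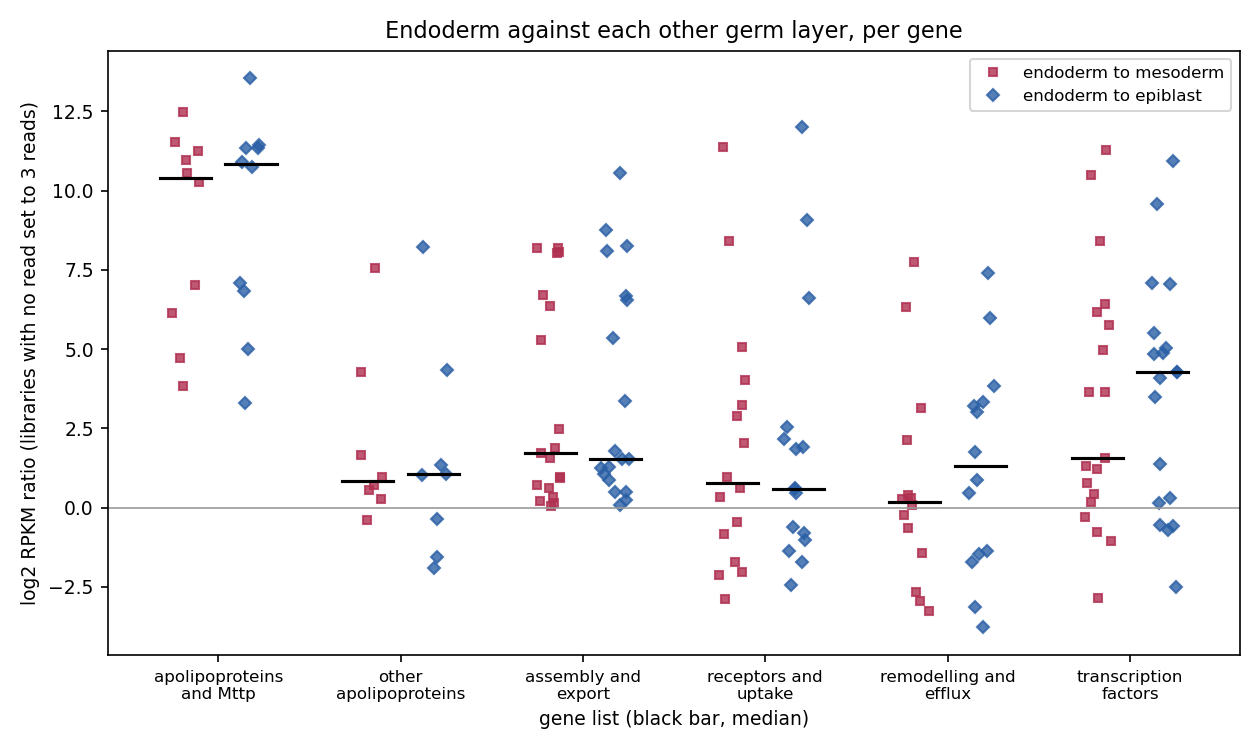
The log2 RPKM ratio of endoderm to mesoderm (squares) and endoderm to epiblast (diamonds) for each gene of 6 lists, with libraries without a read set to 3 reads; black bars are list medians and the grey line is no difference. The medians of the 10 genes are 10.41 and 10.83, against 1.71 and 1.55 for assembly and export, 0.79 and 0.60 for receptors and uptake, 0.18 and 1.32 for remodelling and efflux, 1.56 and 4.28 for transcription factors and 0.84 and 1.05 for other apolipoproteins.

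The profile of each of the 17623 other genes was compared with the median profile of the 10 genes by Euclidean distance on log2(RPKM + 0.1) over the 3 libraries. The nearest was *Afp* at a distance of 0.42, with RPKM values of 441, 0.235 and 0.225. It was followed by *Cubn* (0.84), *Ttr* (1.36), the carbonic anhydrase gene *Car7* (1.43, with RPKM 184, 0.334 and 0.274) and *Amn* (1.5). *Apoe* had other neighbours, *Car4* (1.38, RPKM 1251, 261 and 131), *Emb* (1.44, RPKM 1561, 174 and 195) and *Gpc3* (1.99, RPKM 764, 255 and 80.0). Over 3 libraries such a distance describes levels alone.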

How the data were processed

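Total RNA of each germ layer was sequenced (Illumina HiSeq, paired-end). For each gene the authors deposited the count of reads, the gene length, the coverage as a percent of that length and the RPKM. Dividing the deposited reads by length and by the library's total of counted reads gave the deposited RPKM (largest relative difference 2.03e-07). TopHat, mm10 and mm9 are named in the submitters' processing notes; which build and annotation the gene table used, its counting program and its use of strand are not given in the sources used here. A gene not listed was taken as 0 reads, which allows up to 3, and a fold against 0 reads was set against 3 reads per library.

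Pairs of libraries were compared by the criteria given above, the FDR coming from Audic and Claverie's two-sided exact test on the counts, adjusted by Benjamini-Hochberg over every gene that had a read in the pair. The quasi-likelihood test of edgeR needs replicates and was not fitted, and no p-value is given. Alternatives were other RPKM and fold minimums, a pseudocount, other scalings and the exact test of edgeR, assuming a coefficient of variation of 0.2 or 0.4. The calling step was tested on simulated data. Named genes were the members and list genes with RPKM>5 in any library or with a bearing on a member or a list result. Genes within 50 kb of a cluster, the 5 genes nearest to the median profile and the 3 nearest to *Apoe* were named too. Members and lists were chosen with earlier results of these data known. Of 152 list entries, 131 matched by symbol, 3 by an older symbol and 18 were not listed. Positions came from GENCODE M21 on GRCm38, and promoters from RefSeq. Python 3.11.15, pandas 2.3.3, SciPy 1.17.1, R 4.3.3, edgeR 4.0.16 and DESeq2 1.42.0 were used. Splicing was not analysed here. Some list genes are counted but not reported here by name.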

Additional observations from a re-analysis of the deposited data

How the results depend on the processing

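The calls of the 10 genes against endoderm, 10 and 10, were 10 and 10 under every alternative run, apart from 9 against epiblast at an assumed coefficient of variation of 0.4. Between mesoderm and epiblast the 2 calls fell to 0 with Fold Change>4, and to 0 when edgeR's exact test assumed a coefficient of variation of 0.2 and 0 at 0.4. The share of reads on the 10 genes was 1.91% for endoderm, 0.0299% for mesoderm and 0.0145% for epiblast without the other 10 top genes of each library, and the share of summed RPKM was 1.97%, 0.0452% and 0.0219%. Of 406 gene ratios recomputed (29 ratios under 14 settings), 399 kept their direction and call, 7 lost the call and 0 reversed. The 7 were *Apoc1* for endoderm to epiblast at a coefficient of 0.4, and *Apoc1* and *Apoe* between mesoderm and epiblast under Fold Change>4 and both coefficients. Calls in the pathway lists moved more: against epiblast, the 10 higher assembly genes became 6 with Fold Change>4 and 5 at a coefficient of 0.4, and the 7 higher receptor genes became 3 at 0.4. TMM and DESeq2 scaling raised every endoderm ratio by 0.11 (log2). Upper quartile scaling lowered those to mesoderm by 0.07 and to epiblast by 0.13. A pseudocount of RPKM 1 moved the sizes of the ratios more where the other layer was low. For endoderm to mesoderm, the log2 ratio of *Apoa4* went from 11.55 to 8.59 and that of *Apoc3* from 7.02 to 4.26. That of *Apoe* went only from 3.84 to 3.83. No paired analysis was possible because the labels give no replicate numbers. Leaving out a replicate was not possible with 1 library per layer. Depth limits the low values: *Apoa1*, *Apoa2*, *Apoa4*, *Apoc2*, *Apoc3* and *Apom* had at most 48 reads outside the endoderm, and small differences between mesoderm and epiblast were not detectable for them.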

Other observations

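Markers of other lineages were read beside the apolipoprotein genes. The 7 mesoderm markers were all highest in the mesoderm library (summed RPKM 21.2 for endoderm, 490.3 for mesoderm and 106 for epiblast), and 6 of the 7 epiblast markers were highest in epiblast (164, 199.9 and 1340.3), the exception being *Fgf5*. Of 7 definitive endoderm markers, 5 were highest in endoderm (1023, 85.2 and 125), while *Cxcr4* was highest in mesoderm and *Gsc* in epiblast. *Alb*, the classic gene of the hepatocyte, was not listed in the tables, and of the 7 hepatocyte markers only *Ass1* exceeded RPKM 5, at 75.4, 2.40 and 10.1.

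Of 7 primitive erythroid markers 4 had reads, 275 for endoderm, 370 for mesoderm and 110 for epiblast in sum. Of 7 maternal decidua markers 6 had reads, 152, 465 and 462 in sum, with no gene above RPKM 5. Of 9 markers of extra-embryonic ectoderm and trophoblast 6 had reads, 4514, 3267 and 5886 in sum. *Cdx2* (18.4, 20.9 and 37.1) and *Eomes* (9.51, 7.01 and 14.5) gave most of them. *Elf5* had only 10, 12 and 31 reads and *Ascl2* 18, 74 and 112, and *Tpbpa*, *Prl3d1* and *Prl2c2* were not listed. *Plac1* (19.9, 6.25 and 0.569) and *Esx1* (7.11, 0.0606 and 0.130) were called higher in endoderm. The part of such cells in the apolipoprotein values was not tested.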
